A study of Homo sapiens with 12 samples.

Results

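DNA replication genes encode the proteins that mark and open origins, copy DNA at the fork and supply the nucleotides for it. The 45 genes described here were taken as a fixed list of names, and the rule uses no measured value. The list was, however, chosen with earlier results of these data known. Each gene was found by its Ensembl identifier among the 58051 genes of the deposited count tables. They were followed in HCT116, an epithelial line from a human colon carcinoma, through RNA sequencing of 12 libraries in 6 groups of 2. The cells had received an siRNA, a short RNA duplex that lowers its matching transcript, against PFDN2 (siPFDN2), against PFDN5 (siPFDN5) or a control duplex (siControl). All groups were then kept without serum for 48 h, from 24 h after the siRNA, and were collected either at that point (before serum) or 90 min after serum had been given back (after serum). PFDN2 and PFDN5 are subunits of prefoldin, which hands newly made proteins to a chaperonin. No label states that the 2 libraries of a group came from separate cultures, so p-values measure the spread between these libraries, which may be technical.

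DNA replication begins when the origin recognition complex, with CDC6 and CDT1, loads the MCM helicase ring onto origins during G1. CDC45 and the GINS complex then join the ring and turn it into an active helicase, after which polymerases, the sliding clamp PCNA and its loader, the RFC complex, extend both strands. Many of these genes are known targets of the E2F transcription factors, which are held in check by RB family proteins in cells without growth factors, and their transcripts usually rise as cells go from G1 into S phase.

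Promoter windows, 250 bases before to 50 bases after each annotated start, were held for 39 of the 45 genes in the table from RefSeq (GRCh38.p14). Both strands were searched for TTTCCCGC, TTTCGCGC, TTTGCCGC and TTTGGCGC, 4 spellings of an E2F-type site. A match stood in 20 of the 52 windows of these genes (38.5%) and in 3.31% of all 35116 windows of the same length. CCAAT, the core letters of an NF-Y site, stood on either strand in 30 of the 52 windows (57.7%) and in 34.6% of all windows. The sequences given are the 200 bases before the start of GINS2, PCNA and MCM7, which are the genes given in every library further on whose match lay wholly within these bases. They are written 5′ to 3′ along the gene's own strand, which is the minus strand in each, with the E2F-type letters in capitals. The GINS2 stretch is chr16:85688955-85689154, the PCNA stretch chr20:5126623-5126822 and the MCM7 stretch chr7:100101398-100101597.
GINS2: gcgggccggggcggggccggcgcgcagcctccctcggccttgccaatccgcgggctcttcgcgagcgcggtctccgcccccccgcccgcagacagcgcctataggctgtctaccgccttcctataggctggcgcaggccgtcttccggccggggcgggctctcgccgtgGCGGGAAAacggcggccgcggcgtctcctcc
PCNA: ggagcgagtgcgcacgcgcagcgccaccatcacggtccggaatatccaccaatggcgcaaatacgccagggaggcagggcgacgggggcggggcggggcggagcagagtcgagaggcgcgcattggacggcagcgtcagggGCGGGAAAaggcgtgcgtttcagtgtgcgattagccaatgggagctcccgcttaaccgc
MCM7: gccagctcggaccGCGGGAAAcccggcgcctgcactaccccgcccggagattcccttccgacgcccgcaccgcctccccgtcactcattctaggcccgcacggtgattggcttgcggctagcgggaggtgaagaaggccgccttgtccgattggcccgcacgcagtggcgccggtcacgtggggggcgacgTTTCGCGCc
In GINS2 and PCNA the match reads GCGGGAAA, the reverse complement of TTTCCCGC, and begins 31 and 59 bases before the start. MCM7 has 2 matches, GCGGGAAA at 187 bases before the start and TTTCGCGC at 9 bases before it. A match is a string of letters and was not tested as a binding site.

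Abundance is given as CPM, the fragment count over the whole gene body, introns included, scaled to a fixed library total after TMM normalization. Differences are log2 fold changes from edgeR's quasi-likelihood test, and a called gene had a p under 0.05 after Benjamini-Hochberg adjustment over all 27915 genes tested. All 45 members passed the filter on low counts, and the lowest count of any member in any library was 868, for GINS3. Of the 27915 genes tested, 8243 lay within the members' range of mean abundance. Shares of all genes given below are not limited to these, so they are not a background of equal abundance. Library totals ran from 59784425 to 136504590. The 2 siPFDN5 libraries before serum, at 59784425 and 69515213, were among the 3 smallest, and their share of gene-body counts lying on exons, 77.2% and 74.1%, was below the 79.1% to 85.2% of the other 10 libraries. EPCAM, CDH1, KRT8, KRT18 and CDX2, which mark colon epithelium, were present in every library. Markers of leukocytes (PTPRC), endothelium (PECAM1) and red cells (HBB) stayed at or below 0.145 exon CPM, while COL1A1, a fibroblast collagen, ran from 4.70 to 19.4 exon CPM.

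Before serum PFDN2 counted 11.5 and 11.2 CPM with siControl against 7.55 and 8.49 CPM with siPFDN2, and after serum 19.5 and 16.3 CPM against 8.73 and 9.47 CPM. Before serum PFDN5 counted 76.8 and 68.9 CPM with siControl against 41.0 and 44.2 CPM with siPFDN5. After serum the PFDN5 counts were 67.9 and 74.0 CPM with siControl against 67.5 and 68.6 CPM for those labelled siPFDN5, so the gene-body groups overlapped. Over exons the groups did not overlap after serum, with 87.3 and 90.1 CPM for siControl against 78.0 and 79.6 CPM for siPFDN5, nor before it, with 94.1 and 84.3 CPM against 52.2 and 55.5 CPM. PFDN5 overlaps AC073611.1 and PFDN2 overlaps NIT1, and the counts of each target can include fragments of the gene it overlaps. Each target was below siControl in both libraries of its siRNA before serum, but neither was called (adjusted p = 0.442 for PFDN2 and 0.104 for PFDN5). Both siPFDN2 libraries were below both siControl libraries for PFDN2 after serum too. PFDN2 stood higher with siPFDN5 than with siControl in both libraries of each time, without being called, at 21.8 and 21.1 CPM before serum and 23.1 and 28.7 CPM after it.

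Library 2 of siPFDN2 before serum stood apart. Over the 45 genes the log2 difference between the 2 libraries of a group had an SD of 0.551 in siPFDN2 before serum and of 0.0585 to 0.173 in the other groups. In library 2 a member's deviation from its mean over all libraries followed the GC content of its longest transcript, with a Spearman correlation of 0.837 over the 45 genes and of 0.688 over all genes tested, all from the same library. CDT1, with 64.9% GC, was at 53.9 CPM in library 1 and 125 CPM in library 2. RPA3, with 45.9% GC, was at 30.4 and 14.8 CPM. All 12 libraries share 1 estimate of the spread, so this library enters every test. Counts of called members without it are therefore also given for several comparisons, though not singly for siPFDN2 against siControl.

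**Figure D1:**
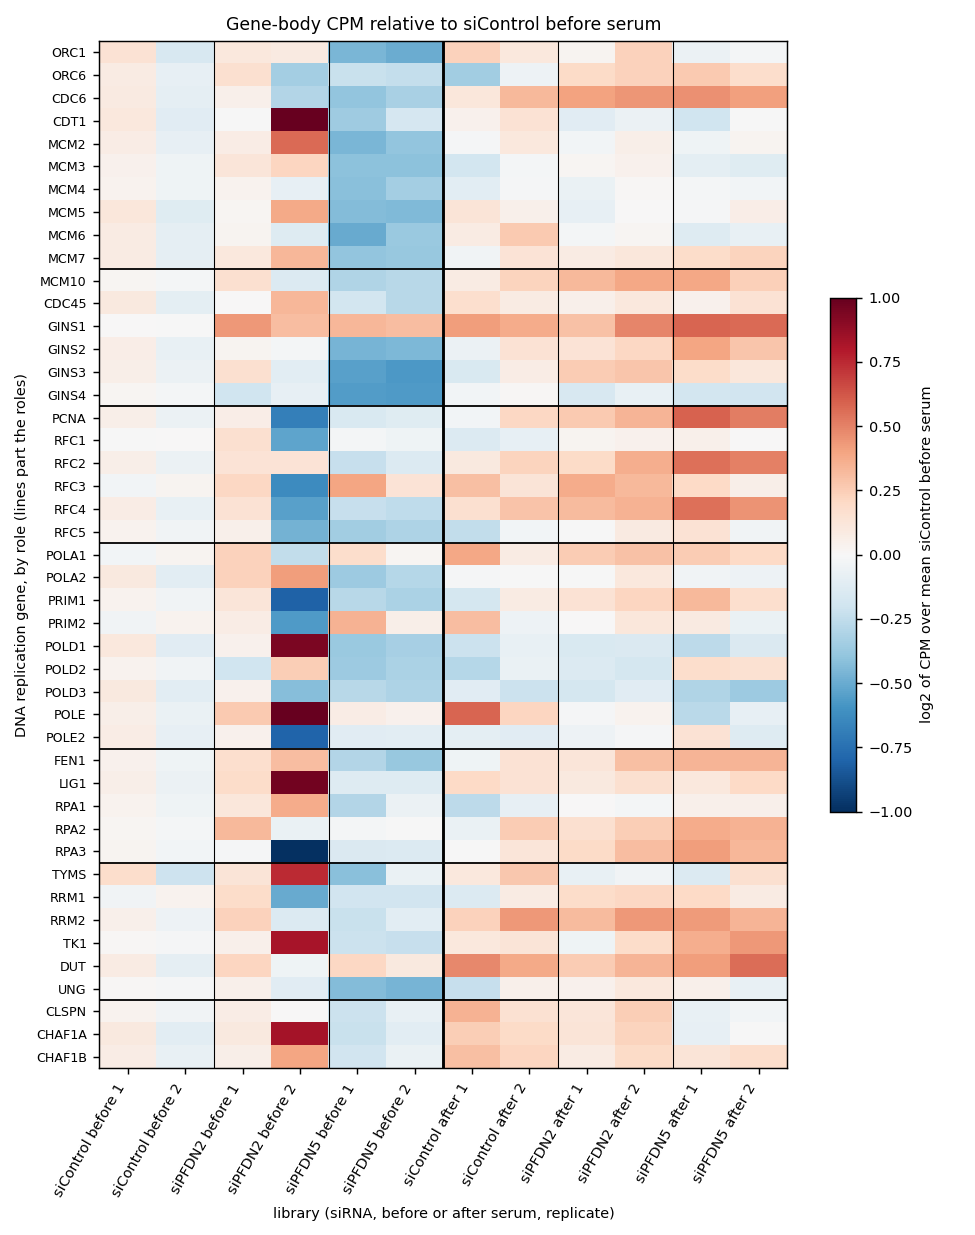
Gene-body CPM of the 45 DNA replication genes in each of the 12 libraries, as log2 of the ratio to the mean of the 2 siControl libraries before serum, with colours saturating at -1 and 1. Members are grouped by role, and 34 of 45 have their lowest group mean in siPFDN5 before serum, the fifth and sixth columns.

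Before serum, most replication transcripts were lower with siPFDN5 than with siControl, although no single member passed the test. The log2 fold change was below 0 for 39 of 45 members, with a median of -0.23 against 0.01 over all genes tested and -0.03 over the 8243 genes within the members' range of abundance. Both siPFDN5 libraries were below both siControl libraries for 36 of 45 members, against 30.5% of all genes. Summed over the 45 genes, CPM came to 3770 and 3508 in siControl before serum and to 3038 and 3090 in siPFDN5 before serum, or 84.2% of the siControl mean. The sum was 3702 to 4070 in the other 8 libraries, so the 2 libraries of siPFDN5 before serum were the lowest of the 12. The group with the lowest mean was siPFDN5 before serum for 34 of 45 members and for 17.9% of all genes.

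No member passed the test in this comparison, in which 0.00716% of all genes were called. DESeq2 called 1 lower against 0.24% of all genes. An unadjusted p under 0.05 was found for 15 of 45 members. The share of all genes at that threshold is not given, here or below. Such counts are therefore not read as results about the genes listed. Without library 2 of siPFDN2 before serum 18 members were called lower and 1 higher, where 3.89% of all genes were called lower. Without library 1 of that group the counts were also 18 and 1, where 3.77% of all genes were called lower. With a GC trend removed from each library 2 members were called lower against 0.269% of all genes. The direction was the same over exons, where 40 members had a log2 fold change below 0, the median was -0.19, and both siPFDN5 libraries were below both siControl libraries for 33 members against 31.5% of all genes. Small totals and a low exon share moved with the siPFDN5 libraries before serum, and their part in the result was not tested.

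With siPFDN2 before serum the members did not lie to one side. The median log2 fold change against siControl was 0.04, both siPFDN2 libraries were above both siControl libraries for 10 members against 15.8% of all genes, and both were below for 1 member against 15.4%. No member was called by edgeR or DESeq2, 0% of all genes were called by edgeR, and 8 members had an unadjusted p under 0.05. Without library 1 of siPFDN2 before serum, which leaves the library that stood apart alone in its group, 29 were called, 16 higher and 13 lower, against 41.8% of all genes called in either direction. Set directly against each other before serum, siPFDN5 was below siPFDN2 for 37 of 45 members with a median of -0.37, and both its libraries were below both of siPFDN2 for 28 members against 23.8% of all genes. None of these was called with gene-body counts, where 0.0788% of all genes were called, and 25 members had an unadjusted p under 0.05. DESeq2 called 19 members lower against 8.07% of all genes. Without library 2 of siPFDN2 before serum 14 members were called lower against 1.87% of all genes, and with the GC trend removed 15 were called lower against 3.44%. Without library 1 of that group 25 were called lower, against 23% of all genes, and 10 higher. The 10 called higher have no share of all genes called higher beside them. Here and elsewhere, calls in a direction without such a share are not read as results about the members. The comparisons of siPFDN5 with siPFDN2 share their siPFDN5 libraries with the one against siControl.

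After serum the members with siPFDN5 did not lie to one side of siControl. The median log2 fold change was 0.06, both siPFDN5 libraries were above both siControl libraries for 19 members against 30.6% of all genes, and both were below for 10 members against 32.7%. No member was called in the comparison of siPFDN5 with siControl after serum by edgeR or DESeq2, with 0.00358% of all genes called by edgeR and 4 members at an unadjusted p under 0.05, but 13 and 14 members were called without library 1 and library 2 of siPFDN2 before serum, where 23.6% and 23.9% of all genes were called. With library size in place of TMM the median became -0.10 for siPFDN5 and -0.08 for siPFDN2, with medians over all genes of -0.20 and -0.17, so these signs turn with the scaling. The siPFDN2 libraries after serum gave a median of 0.04 against siControl, with both above for 16 members against 22.5% of all genes, and siPFDN5 gave a median of 0.01 against siPFDN2. Neither of these held a called member by edgeR or DESeq2 or a member at an unadjusted p under 0.05, and 0% and 0.0179% of all genes were called by edgeR.

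**Figure D2:**
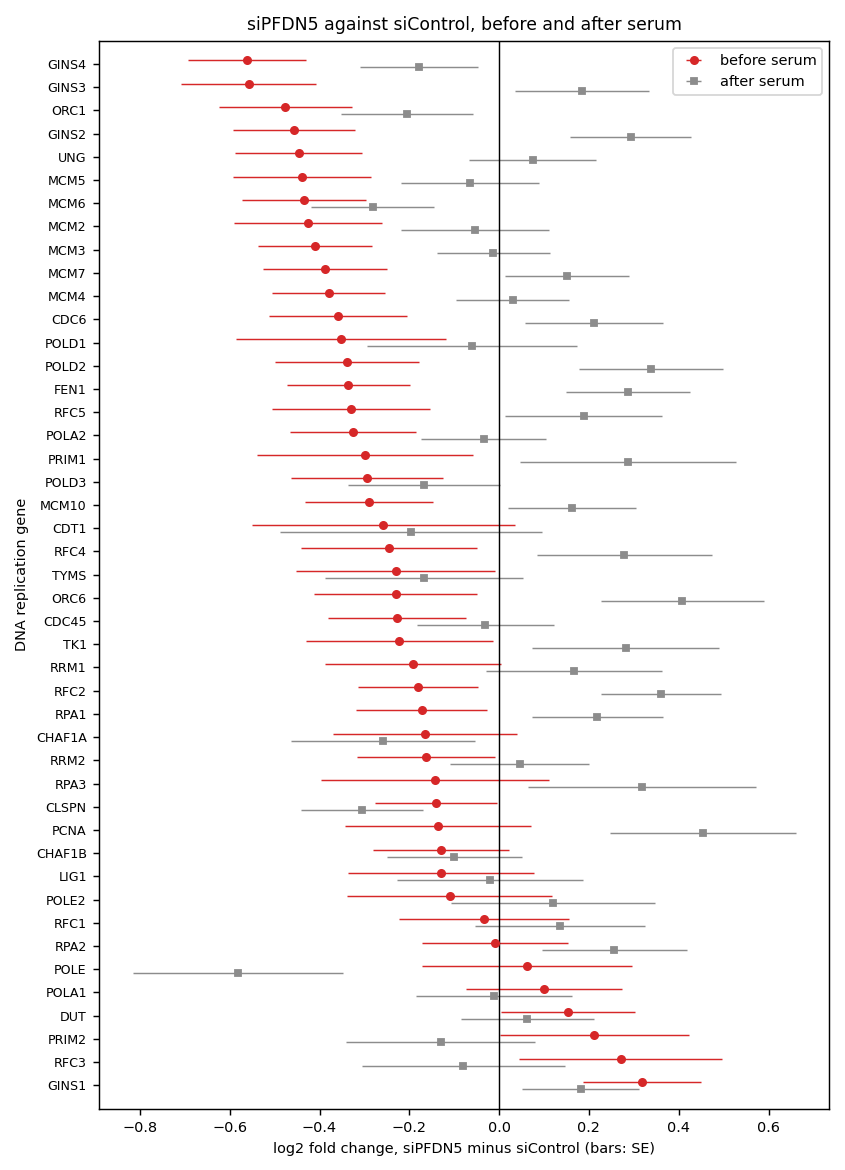
Log2 fold change of siPFDN5 against siControl for each of the 45 members before serum (circles) and after serum (squares), with bars of 1 SE from the model of all 12 libraries. Before serum 39 members lie below 0, from -0.56 for GINS4, while after serum 25 lie above 0 and 20 below.

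With siPFDN5, replication transcripts were higher after serum than before it for most members. After minus before serum, 41 of 45 members had a log2 fold change above 0, with a median of 0.35 against -0.03 over all genes and 0.14 over genes of the members' abundance. Both libraries after serum were above both before serum for 37 members against 36.8% of all genes. In this comparison 9 members rose and none fell, where 5.72% of all genes were called higher. They were CDC6, MCM7, MCM10, GINS2, GINS3, RFC2, RFC4, FEN1 and RRM2, with log2 fold changes from 0.55 for RRM2 to 0.79 for GINS2 and CDC6. Over exons 5 of these were called, CDC6, FEN1, GINS2, GINS3 and RFC2, against 2.72% of all genes. The count was 32 without library 2 of siPFDN2 before serum, against 20.1% of all genes, 32 also without library 1 of that group, against 19.8%, and 27 with the GC trend removed, against 16.4%. It was 0 without any 1 of the 4 siPFDN5 libraries, where the remaining library of its group was assumed to vary like the others and 0.857% to 1.32% of all genes were called. With library size in place of TMM 4 members rose, where 2.78% of all genes were called higher. That scaling moved the median over all genes to -0.18, with 776 genes called higher and 2470 lower against 1598 and 1809 with TMM, and left 35 members above 0, with a median of 0.20.

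Other values moved with this response. The share of counts on exons was 77.2% and 74.1% in the siPFDN5 libraries before serum and 82.8% and 85.2% in those after it. PFDN5 itself counted 41.0 and 44.2 CPM before and 67.5 and 68.6 CPM after, and rose by 0.68 (adjusted p = 0.0156). Their part in the result was not tested. Over exons the median response of the 45 members was 0.30.

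In siControl and siPFDN2 the serum responses had medians nearer 0. The median was 0.10 in siControl, with both libraries after serum above both before for 16 members against 23.3% of all genes. In siPFDN2 the median was 0.05, with both above for 16 members against 26.2%. No member was called by edgeR in either, where 2.87% and 3.26% of all genes were called, and unadjusted p was under 0.05 for 2 and 11 members. With library size in place of TMM the siPFDN2 median became -0.16, against -0.23 over all genes. DESeq2 called 0 members in siControl and 4 in siPFDN2, 1 higher and 3 lower, against 11.2% of all genes called in either direction. Without library 1 of siPFDN2 before serum, 18 were called higher and 12 lower in siPFDN2, against 48.6% of all genes in either direction. Without library 1 or library 2 of that group, 4 were called higher in siControl, against 6.08% and 6.2% of all genes. The difference of the serum response between siPFDN5 and siControl was above 0 for 37 members, with a median of 0.36 against -0.03 over all genes. No member passed this test of the difference by edgeR, nor did any of all genes (0%), and 12 members had an unadjusted p under 0.05, while DESeq2 called 3 higher against 1.42% of all genes. Without library 2 of siPFDN2 before serum 23 members were called higher and 1 lower in this difference, against 12.2% of all genes called higher, and with the GC trend removed 8 were called higher against 4.03%. For siPFDN2 the difference from siControl had a median of -0.03, no called member by edgeR or DESeq2, 0% of all genes called and 3 members at an unadjusted p under 0.05. The siPFDN5 libraries before serum enter both the comparison with siControl and the siPFDN5 serum response, so these are not independent of each other.

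Averaged over the 3 siRNAs, 9 members rose after serum and none fell, where 7.6% of all genes were called higher. These were CDC6, GINS2, GINS3, MCM10, PCNA, RFC2, RFC4, RRM2 and DUT, of which 7 were also called in siPFDN5 alone, a share of 7 of 9 for each list from comparisons with shared libraries. The median of the averaged response was 0.16 for the 45 members and -0.03 for all genes. The same 9 members were called over exons, against 5.85% of all genes. The count was 22 without library 2 of siPFDN2 before serum, against 14.9% of all genes, and 18 with the GC trend removed, against 15.4%. Leaving out library 1 of that group, which leaves library 2 alone in it, gave 26 higher and 4 lower, against 24.7% of all genes called higher. Leaving out any 1 of the other 10 gave fewer than 9, where 6.85% to 14.9% of all genes were called in either direction. It gave 1 without library 2 of siControl before serum, library 2 of siPFDN2 after serum or library 1 of siPFDN5 at either time, 2 without library 2 of siControl after serum or of siPFDN5 before serum, and 5 to 8 without the others. With library size in place of TMM 3 members rose, where 4.62% of all genes were called higher. The median over all genes was then -0.17, with 1291 genes called higher and 4430 lower against 2122 and 2041 with TMM, and the median of the members was 0.02.

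Origin recognition and licensing. The 10 members of this role were all lower with siPFDN5 than with siControl in both libraries before serum, with log2 fold changes from -0.48 for ORC1 to -0.23 for ORC6 and a median of -0.40. ORC1 and ORC6 are subunits of the origin recognition complex. The 6 subunits of the MCM2-7 ring lay close together, with MCM5 and MCM6 at -0.44, MCM2 at -0.43, MCM3 at -0.41, MCM7 at -0.39 and MCM4 at -0.38. CDC6, the ATPase that helps to load the ring, was at -0.36 and CDT1, its partner in loading, at -0.26. After serum the ring subunits were between -0.28 for MCM6 and 0.15 for MCM7 against siControl.

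CDC6 (ENSG00000094804, chromosome 17, 40287633 to 40304657) measured 97.4 and 86.0 CPM before serum and 99.1 and 115 CPM afterwards with siControl. With siPFDN2 the libraries held 95.2 and 74.8 CPM before and 121 and 124 CPM after, and the siPFDN5 libraries 69.7 and 73.4 CPM before and 126 and 122 CPM after. The siPFDN5 libraries before serum were the lowest of the 12, and in each siRNA both libraries after serum were above both before. CDC6 rose in siPFDN5 by 0.79 ± 0.15 (log2, SE, adjusted p = 0.0135) and on average by 0.51 ± 0.089 (adjusted p = 0.0032), the highest averaged response among the members.

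MCM7 (ENSG00000166508, chromosome 7, 100092728 to 100101940), a subunit of the ring, counted 294 and 261 CPM with siControl before serum, then 271 and 306 CPM once serum was back. The siPFDN2 libraries counted 299 and 349 CPM before and 295 and 301 CPM after. In siPFDN5 it was at 211 and 213 CPM before and 316 and 325 CPM after. The 2 siPFDN5 libraries before serum were the lowest of the 12, and the siControl groups before and after serum overlapped. It rose in siPFDN5 by 0.59 ± 0.14 (adjusted p = 0.0244), and its averaged response of 0.17 was not called. MCM7 hosts 3 microRNA genes and overlaps AP4M1, and counts ignore strand, so its counts can include theirs.

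Helicase activation. In this role 5 of 6 members were below siControl in both siPFDN5 libraries before serum. The GINS complex, a clasp on the MCM ring made of GINS1 to GINS4, had values on both sides of 0. GINS4 at -0.56, GINS3 at -0.56 and GINS2 at -0.46 were among the 4 lowest of the 45 members, whereas GINS1 at 0.32 was the highest. Before serum GINS1 counted 32.9 and 32.7 CPM with siControl against 41.2 and 40.5 CPM with siPFDN5, and both siPFDN2 libraries before serum were above siControl too. GINS3 counted 20.9 and 19.3 CPM with siControl against 13.8 and 13.5 CPM with siPFDN5. GINS4 was at 22.5 and 21.9 CPM with siControl, against 15.02 and 14.999 CPM with siPFDN5, so neither gene's groups overlapped. CDC45, the ring's other partner, was at -0.23.

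GINS2 (ENSG00000131153, chromosome 16, 85676198 to 85690073) measured 43.1 and 39.0 CPM before serum and 39.4 and 45.3 CPM afterwards with siControl. The siPFDN2 libraries had 41.8 and 40.5 CPM before and 45.2 and 47.3 CPM after, and the siPFDN5 libraries 29.8 and 30.1 CPM before and 53.9 and 49.9 CPM after. The siPFDN5 group therefore held both the lowest values, before serum, and the highest, after it. GINS2 rose in siPFDN5 by 0.79 ± 0.14 (adjusted p = 0.0077) and on average by 0.34 ± 0.078 (adjusted p = 0.0167). The difference of its response from that of siControl was 0.75 ± 0.19 and was not called (adjusted p = 0.096). GINS2 overlaps GSE1, whose fragments its counts can include.

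MCM10 (ENSG00000065328, chromosome 10, 13161554 to 13211104), which helps to start the helicase, counted 64.6 and 62.9 CPM with siControl before serum, then 67.5 and 74.3 CPM once serum was back. With siPFDN2 the libraries held 71.1 and 58.1 CPM before and 79.6 and 83.1 CPM after, and the siPFDN5 libraries 51.8 and 52.5 CPM before and 83.4 and 75.4 CPM after. In each siRNA the libraries after serum were above those before, without overlap. MCM10 rose in siPFDN5 by 0.61 ± 0.14 (adjusted p = 0.0253) and on average by 0.36 ± 0.082 (adjusted p = 0.0145). GINS3 rose by 0.71 ± 0.15 in siPFDN5 (adjusted p = 0.0186) and by 0.30 ± 0.086 on average (adjusted p = 0.0395).

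**Figure D3:**
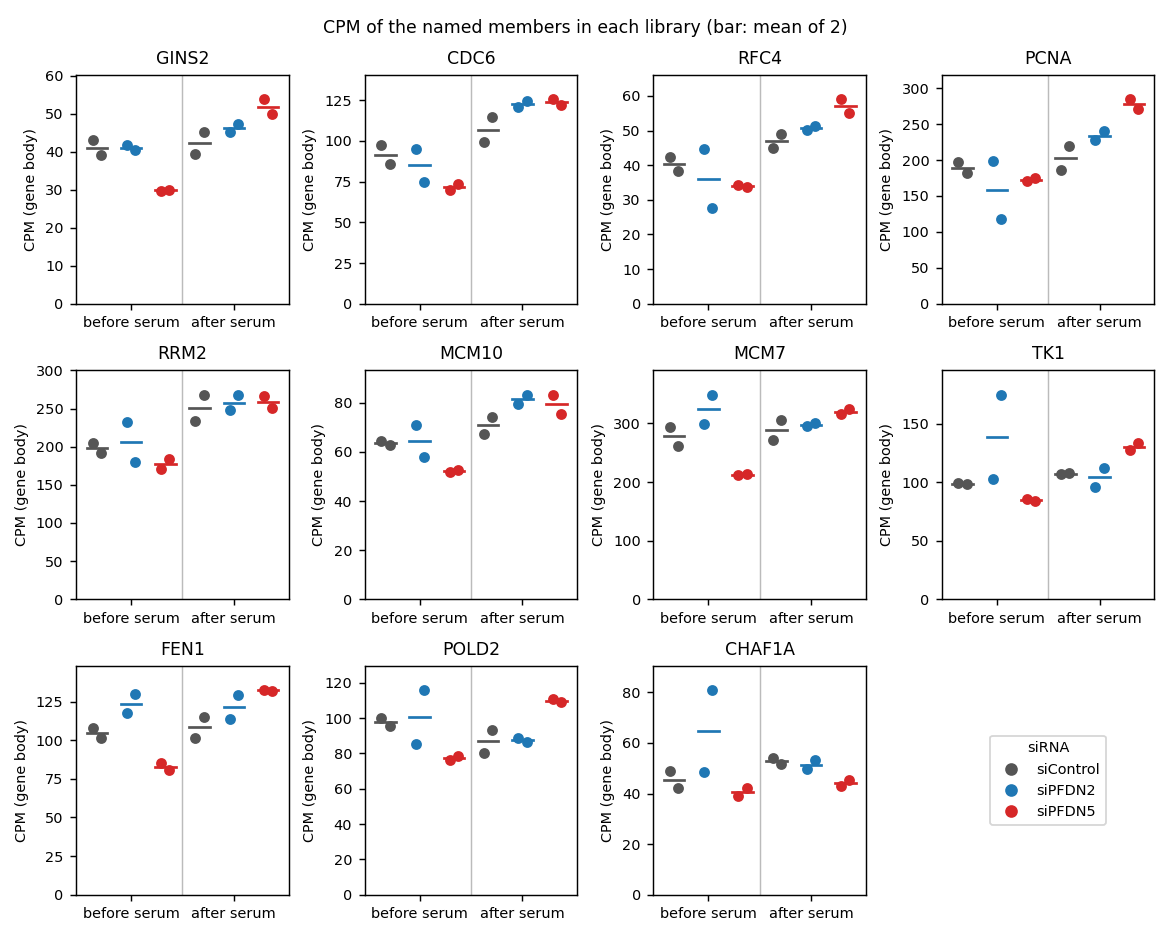
Gene-body CPM of 11 members in each library, with points for the 2 libraries and a bar for their mean, in order siControl, siPFDN2 and siPFDN5 before serum on the left and after serum on the right. GINS2 and MCM7 are lowest in siPFDN5 before serum, and PCNA, TK1 and CHAF1A show library 2 of siPFDN2 before serum away from library 1.

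Clamp and clamp loader. PCNA is the ring that tethers polymerases to DNA, and RFC1 to RFC5 form the loader that closes it. Before serum 5 of the 6 members were below siControl in both siPFDN5 libraries, with a median log2 fold change of -0.16. RFC3 was at 0.27 over the gene body, where it overlaps RNU5A-4P and AL161891.1. Over exons RFC3 was slightly lower in both, with 38.3 and 37.3 CPM for siControl against 37.2 and 36.5 CPM for siPFDN5. The share of its gene-body counts off exons was 31.9% and 36.4% with siControl against 52.5% and 43.7% with siPFDN5. After serum 5 of the 6 had a log2 fold change above 0 against siControl, with a median of 0.23 and PCNA at 0.45 as the highest of the 45 members.

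PCNA (ENSG00000132646, chromosome 20, 5114953 to 5126626) measured 198 and 182 CPM before serum and 186 and 219 CPM afterwards with siControl. The siPFDN2 libraries counted 199 and 118 CPM before and 228 and 240 CPM after, and the siPFDN5 libraries 171 and 175 CPM before and 285 and 271 CPM after. The siPFDN5 libraries after serum were the highest of the 12, and the siControl groups overlapped. PCNA rose on average by 0.45 ± 0.12 (adjusted p = 0.03), while its response in siPFDN5, 0.69 ± 0.21, was not called (adjusted p = 0.0532).

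RFC4 (ENSG00000163918, chromosome 3, 186789880 to 186807058) counted 42.4 and 38.2 CPM with siControl before serum, then 44.99 and 49.1 CPM once serum was back. The siPFDN2 libraries had 44.6 and 27.6 CPM before and 50.2 and 51.3 CPM after, and the siPFDN5 libraries 34.3 and 33.7 CPM before and 59.1 and 55.1 CPM after. Both libraries after serum were above both before in each siRNA. RFC4 rose in siPFDN5 by 0.75 ± 0.20 (adjusted p = 0.0349) and on average by 0.49 ± 0.11 (adjusted p = 0.0164). RFC2 rose by 0.71 ± 0.13 in siPFDN5 (adjusted p = 0.0121) and by 0.34 ± 0.077 on average (adjusted p = 0.0153). The remaining loader subunits had siPFDN5 responses of 0.06 (RFC1), -0.14 (RFC3) and 0.39 (RFC5), and none was called. Over exons RFC3 with siPFDN5 was instead higher after serum, at 48.4 and 42.7 CPM against 37.2 and 36.5 CPM before it. RFC4 overlaps EIF4A2, a much-expressed translation factor gene, and its counts can include that gene's fragments.

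Polymerases and primase. POLA1, POLA2, PRIM1 and PRIM2 form the primase complex that starts each strand, POLD1 to POLD3 belong to polymerase delta of the lagging strand, and POLE and POLE2 to polymerase epsilon of the leading strand. The role was divided before serum in gene-body counts. With siPFDN5, POLA2 (-0.33), PRIM1 (-0.30), POLD1 (-0.35), POLD2 (-0.34), POLD3 (-0.29) and POLE2 (-0.11) were below siControl in both libraries, whereas PRIM2 (0.21), POLA1 (0.10) and POLE (0.06) had values above 0. Over exons PRIM2 was lower in both libraries, with 53.1 and 52.6 CPM for siControl against 51.2 and 45.2 CPM for siPFDN5. The share of PRIM2 gene-body counts off exons was 15.8% and 20.4% with siControl against 40.2% and 34.4% with siPFDN5. PRIM2 overlaps MIR548U and FO680682.1. Over exons the POLA1 groups overlapped, and POLE was higher in both libraries. No member of this role was called in any of the 12 comparisons of gene-body counts. POLE measured 73.0 and 66.9 CPM before serum and 105 and 81.1 CPM afterwards with siControl, against 57.9 and 66.2 CPM with siPFDN5 after serum, the lowest log2 fold change of the 45 members in that comparison (-0.58, adjusted p = 0.185). POLD2 (ENSG00000106628, chromosome 7, 44114681 to 44124358) was the most abundant of the role per length. With siControl it counted 100.0 and 95.6 CPM before serum, then 80.4 and 93.3 CPM. It counted 85.3 and 116 CPM in siPFDN2 before serum and 88.8 and 86.6 CPM in siPFDN2 after serum. In siPFDN5 it counted 76.0 and 78.5 CPM before serum, then 111 and 109 CPM, a response of 0.51 ± 0.16 that was not called (adjusted p = 0.0607).

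Flap removal, ligation and single-strand binding. FEN1 cuts the flaps between Okazaki fragments, LIG1 seals them, and RPA1 to RPA3 coat single-stranded DNA. Before serum with siPFDN5 they ran from -0.34 for FEN1 to -0.01 for RPA2 against siControl, and all 5 had siPFDN5 serum responses above 0. FEN1 (ENSG00000168496, chromosome 11, 61792637 to 61797244) counted 108 and 101 CPM with siControl before serum, then 101 and 115 CPM once serum was back. With siPFDN2 the libraries held 117 and 130 CPM before and 114 and 129 CPM after, groups that overlap. In siPFDN5 it was at 85.3 and 80.4 CPM before and 132 and 132 CPM after, the lowest and highest values of the 12 libraries. FEN1 rose in siPFDN5 by 0.67 ± 0.14 (adjusted p = 0.0161), and its averaged response of 0.23 was not called. FEN1 overlaps TMEM258 and FADS2.

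Nucleotide supply and uracil removal. RRM1 and RRM2 form ribonucleotide reductase, TYMS makes thymidylate, TK1 salvages thymidine, DUT removes dUTP and UNG takes uracil out of DNA. With siPFDN5 before serum UNG, at -0.45, was the lowest of the 6 against siControl, and DUT, at 0.15, was above it in both libraries. RRM2 (ENSG00000171848, chromosome 2, 10122328 to 10131419), the subunit whose level is limiting, measured 205 and 192 CPM before serum and 233 and 268 CPM afterwards with siControl. The siPFDN2 libraries counted 233 and 180 CPM before and 247 and 268 CPM after, and the siPFDN5 libraries 170 and 184 CPM before and 266 and 251 CPM after. In each siRNA the 2 libraries after serum were above the 2 before. RRM2 rose in siPFDN5 by 0.55 ± 0.15 (adjusted p = 0.044) and on average by 0.40 ± 0.089 (adjusted p = 0.0136). DUT rose on average by 0.32 ± 0.086 (adjusted p = 0.0293), from 24.7 and 21.9 CPM to 32.4 and 30.2 CPM in siControl.

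TK1 (ENSG00000167900, chromosome 17, 78174075 to 78187233) counted 99.6 and 98.0 CPM with siControl before serum, then 107 and 108 CPM once serum was back. The siPFDN2 libraries had 102 and 175 CPM before and 96.2 and 112 CPM after, with the high value in library 2, and TK1 transcripts hold 62.8% GC. In siPFDN5 it was at 85.3 and 84.1 CPM before and 127 and 133 CPM after, a response of 0.62 ± 0.21 that was not called (adjusted p = 0.0737).

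Checkpoint adaptor and chromatin assembly. CLSPN carries the signal from stalled forks to CHK1, and CHAF1A and CHAF1B place histones behind the fork. These 3 had log2 fold changes below 0 with siPFDN5 against siControl both before serum (-0.17 to -0.13) and after it (-0.30 to -0.10), and none was called. CHAF1A (ENSG00000167670, chromosome 19, 4402662 to 4445018) counted 48.8 and 42.3 CPM with siControl before serum, then 53.9 and 51.9 CPM. It counted 48.7 and 80.9 CPM in siPFDN2 before serum and 49.8 and 53.1 CPM in siPFDN2 after serum. In siPFDN5 it was at 38.94 and 42.2 CPM before serum and 43.0 and 45.4 CPM after it. The high value is again library 2 of siPFDN2, and the siPFDN5 libraries of each time lie below both siControl libraries. Its siPFDN5 serum response was 0.12 ± 0.20 (adjusted p = 0.724).

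Levels of different genes were compared on exon CPM per kilobase of exon. PCNA was the most abundant member, with a mean of 168 over the 12 libraries, followed by MCM7 at 79.7, MCM3 at 71.6 and TK1 at 70.5. RRM2 stood at 55.3, FEN1 at 54.9, MCM4 at 46.3, UNG at 44.4, MCM2 at 44.0 and RRM1 at 40.6. The 4 lowest were GINS3 at 4.64, POLA2 at 4.58, GINS4 at 4.11 and POLD3 at 3.499, a span of 48.1-fold from top to bottom. The most abundant member of each other role was POLD2 (30.4), GINS2 (15.5) and CHAF1A (12.5). By role, the median was highest for nucleotide supply (42.5) and licensing (29.3) and lowest for the checkpoint and chromatin assembly genes (7.56). In all 44 pairs of neighbours in this order the ranges over the 12 libraries overlapped. PCNA and MCM7 overlapped through library 2 of siPFDN2 before serum alone. In the other 11 libraries, a choice made after the data had been seen, PCNA ran from 145 to 222 and MCM7 from 61.0 to 85.8, while 43 of the 44 pairs still overlapped.

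**Figure D4:**
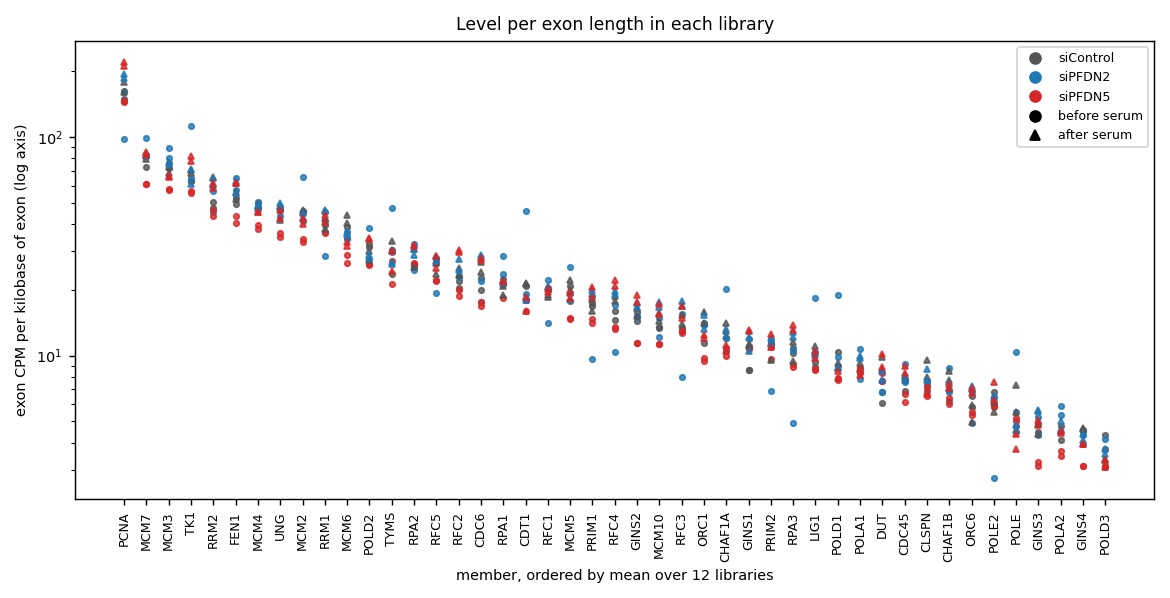
Exon CPM per kilobase of exon of each member in the 12 libraries on a log axis, ordered by the mean. PCNA leads with a mean of 168, neighbours overlap in all 44 pairs, PCNA and MCM7 through 1 library alone, and the siPFDN2 circles far from the others belong to library 2 before serum.

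Reads in introns come mostly from RNA that has not been spliced. Gene-body counts minus exon counts were taken as intronic, and the ratio of intronic to exonic counts was tested in 4731 genes that overlap no other gene, 19 members among them. The median intronic share of these 19 ran from 3.13% to 4.99% in the 10 libraries other than siPFDN5 after serum, and was 2.18% and 1.89% there. Over all 4731 genes the median share ran from 8.60% to 14.9% in the 10 libraries and was 6.34% and 6.49% with siPFDN5 after serum. Averaged over the 3 siRNAs, the ratio fell after serum in 6 of 19 members, where it fell in 31.7% of all genes, and the median change was -0.37 for both. By siRNA, the members' median change was 0.04 in siControl, -0.24 in siPFDN2 and -0.98 in siPFDN5. In siPFDN5 the ratio was called lower in 13 of the 19 members and in 2307 of the 4731 genes. No member was called in siControl or siPFDN2, where 44 and 154 genes were called lower. The siPFDN5 change minus that of siControl, added after the data had been seen, was called lower in 7 of 19 members against 35.4% of all genes. Those that fell on average were RFC2 (-0.81 ± 0.20, adjusted p = 0.0032), POLA2 (-0.72), RPA2 (-0.65), CDC6 (-0.59), ORC1 (-0.54) and CDC45 (-0.51), and the count ran from 2 to 13 as each library was left out, where 22.4% to 51.5% of all genes were called in either direction.

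**Figure D5:**
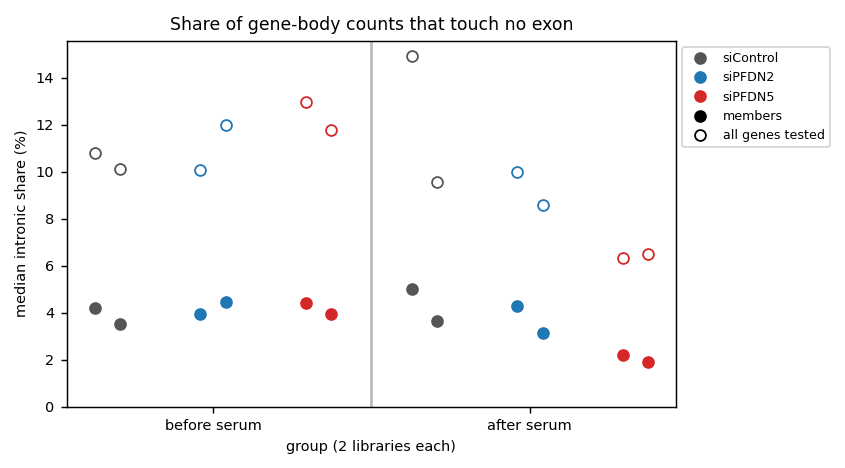
Median intronic share of gene-body counts, in percent, for 19 members (filled) and all 4731 genes tested (open) in each library. Both are lowest in the 2 siPFDN5 libraries after serum, at 2.18% and 1.89% for the members.

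Intronic counts were also tested on their own, in all 45 members, including those that overlap another gene. Before serum, in siPFDN5 against siPFDN2 14 members were called lower, where 6.33% of all genes were called lower, and RPA3 was called higher. Those lower included CDT1 (-1.96), MCM7 (-1.35), MCM2 (-1.26), MCM5 (-1.19), UNG (-1.15), TK1 (-1.09) and GINS2 (-1.01). MCM7, MCM2, GINS2 and RPA3 overlap AP4M1, TPRA1, GSE1 and UMAD1, whose fragments their intronic counts can include. CDT1, MCM5, UNG and TK1 overlap no other gene. The median intronic share of MCM7 over the libraries was only 0.655%. The siPFDN2 group of this comparison holds the library that stood apart.

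Members with and without an E2F-type match in the promoter window were set side by side. With siPFDN5 against siControl before serum the median log2 fold change was -0.24 for the 20 members with a match and -0.23 for the 19 without. The siPFDN5 serum response had a median of 0.29 with a match and 0.44 without, and the averaged response 0.17 and 0.16, values given as a description with no test.

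Other replication factors and the regulators of the G1/S step were set beside the members. Among 30 further replication factors, all tested, the median with siPFDN5 against siControl before serum was -0.14. Both siPFDN5 libraries were below in 18, against 30.5% of all genes. None was called by edgeR, where 0.00716% of all genes were called, and 2 had an unadjusted p under 0.05. In the siPFDN5 serum response their median was 0.17, with POLE3 and POLE4, small subunits of polymerase epsilon, called higher and TICRR called lower. In that response 5.72% of all genes were called higher, and 1809 of the 27915 genes lower. Averaged over the siRNAs TICRR, which helps to load CDC45 at origins, fell by 0.65 ± 0.095 (adjusted p = 0.0012) and TIPIN, of the fork protection complex, rose by 0.42 ± 0.11 (adjusted p = 0.0327). With siControl TICRR counted 32.9 and 29.9 CPM before serum and 24.2 and 22.1 CPM after it, a response of -0.44 that was not called, and it fell by 0.80 in siPFDN2 and by 0.70 in siPFDN5.

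Among 30 regulators of the G1/S step, the E2F, RB and DREAM genes and the kinases and inhibitors around them, the median with siPFDN5 against siControl before serum was -0.11 and in the siPFDN5 serum response 0.24. None was called before serum, where 0.00716% of all genes were called, and 6 had an unadjusted p under 0.05. In the siPFDN5 response E2F8, CDC25A, CDKN1A and MYC were called higher, against 5.72% of all genes, and CDKN1B lower. In the averaged response 4 rose and 1 fell, where 7.6% of all genes were called higher and 2041 of the 27915 genes lower. MYC, a growth regulator, rose by 0.61 ± 0.10 (adjusted p = 0.0029), E2F8, a repressor of E2F targets, rose by 0.50 ± 0.089 (adjusted p = 0.0039) and E2F6 rose by 0.40 ± 0.11 (adjusted p = 0.0363). CDKN1B, which encodes the inhibitor p27, fell by 0.54 ± 0.084 (adjusted p = 0.0018). With siControl CDKN1B counted 30.1 and 28.4 CPM before serum and 20.5 and 21.4 CPM after it, and with siPFDN5 31.5 and 31.1 CPM before and 17.1 and 15.9 CPM after.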

How the data were processed

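Per the labels, total RNA was DNase-treated, reverse-transcribed with random hexamers and depleted of 18S rRNA. The authors deposited fragment counts per gene over gene bodies and over exons. Per the file headers these came from featureCounts on Ensembl release 87, in which a fragment lying on several genes adds to each of them and strand is ignored, so counts of the 26 members that overlap another gene are uncertain. The submitters' processing notes name HISAT2, featureCounts 1.5.2, kallisto 0.43 and GRCh38.p7, without saying which made which file. Exon lengths, which give levels per kilobase, are those in the deposited tables (other values than counts). The 6 count columns that match no sample, and the deposited TPM values per transcript, were not used here.

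Groups and replicate numbers came from the titles. Gene-body counts were fitted with edgeR 4.0.16 in R 4.3.3 across all genes and all 12 libraries (filterByExpr, TMM scaling, 6 group means, robust quasi-likelihood fit, two-sided tests, Benjamini-Hochberg adjustment over all genes tested, 12 comparisons). The median coefficient of biological variation was 17.4%. CPM on the log2 scale used a prior count of 2. Scripts were tested on simulated data. Alternatives were DESeq2 1.42.0, library size without TMM, no filter, exon or intronic counts, a lowess GC trend as an offset (GC known for 99.0% of genes, from GENCODE 29), a replicate block, the compared libraries alone and each library left out. Intronic ratios were tested in edgeR as the change of intronic relative to exonic counts between groups, with a term for each library, in genes with at least 50 intronic and 50 exonic counts.

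The members and lists were chosen with earlier results of these data known. Values in every library are given for members called outside the averaged response (up to 3 each way), the 5 largest averaged responses, and the most abundant member of each role. Other members are named as ends of a range or exceptions to a count, after their values had been seen.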

Additional observations from a re-analysis of the deposited data

Results flagged for a closer look

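The serum response of the intronic ratio differed between siPFDN5 and siControl, by a test of the difference itself, in 7 of the 19 members tested. This comparison was added after the data had been seen. On the log2 scale the difference was -1.66 ± 0.49 (SE) for POLD2 (adjusted p = 0.0131), -1.53 ± 0.43 for CDC45 (adjusted p = 0.0102), -1.43 ± 0.46 for GINS1 (adjusted p = 0.0203) and -1.35 ± 0.45 for POLA2 (adjusted p = 0.0229). It was -1.28 ± 0.50 for RFC2 (adjusted p = 0.0464), -1.27 ± 0.49 for ORC6 (adjusted p = 0.0443) and -1.16 ± 0.46 for TK1 (adjusted p = 0.0485). In POLD2 the intronic share was 2.04% and 1.18% in siControl before serum, 2.58% and 1.90% in siControl after it, 1.65% and 1.66% in siPFDN5 before serum and 0.736% and 0.773% in siPFDN5 after it. The same difference was lower in 35.4% of all 4731 genes, with a median of -1.08 against -1.01 for the 19 members, so the members' share is near the background. Leaving out each library gave between 0 (without siPFDN5 before serum replicate 1) and 11 (without siControl after serum replicate 2) called members, where 13.1% and 52.4% of all genes were called.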

How the results depend on the processing

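Counts below are members called of 45. A count given without the share of all genes called in the same setting is not read as a result about the members. For siPFDN5 minus siControl before serum DESeq2 called 1, where 0.24% of all genes were called lower. GC trend removal gave 2, where 0.269% of all genes were called lower, and the compared libraries alone gave 24. After serum the same comparison gave 1 with no filter, 3 with the GC trend removed and 1 with the compared libraries alone. For siPFDN5 minus siPFDN2 before serum DESeq2 gave 19, no filter 16, intronic counts 15 and GC removal 15, and after serum the compared libraries alone gave 9. For siPFDN2 minus siControl before serum no filter gave 3. The serum response in siControl gave 1 with GC removal. In siPFDN2 it gave 4 with DESeq2, against 11.2% of all genes called. With library size alone it gave 3, where 570 of all genes were called higher and 2846 lower. It also gave 7 with no filter and 1 with intronic counts. In siPFDN5, against 9, it gave 17 with DESeq2, where 16.4% of all genes were called, 4 with library size alone, 5 with exon counts, 27 with GC removal and 34 with the compared libraries alone. The averaged response, against 9, gave 3 with library size alone, where 20.5% of all genes were called in either direction, and 18 with GC removal. The difference of the response from siControl gave 2 with no filter for siPFDN2, and for siPFDN5 3 with DESeq2, 2 with intronic counts, 8 with GC removal and 18 with the compared libraries alone. With overlapping genes included the intronic ratio was called in 13 of 45 members on average, against 23.1% of all genes, and in 17 of 45 for the siPFDN5 difference, against 31.0%. The cause of these shifts was not tested.

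Leaving out each library gave 0 to 29 for siPFDN2 minus siControl before serum, 0 to 0 after it, 0 to 19 and 0 to 14 for siPFDN5 minus siControl, and 0 to 35 and 0 to 2 for siPFDN5 minus siPFDN2. Serum responses gave 0 to 4 in siControl, 0 to 30 in siPFDN2, 0 to 32 in siPFDN5 and 1 to 30 on average, and the differences from siControl 0 to 24 for each siRNA. The intronic ratio gave 2 to 13 and 0 to 11. The highest of these gene-body counts above 0 came without a library of siPFDN2 before serum, the group whose libraries differed most. Precision is limited by 2 libraries a group.

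With the replicate number as a block, 8 members were called in the siPFDN5 response, 9 on average and 0 elsewhere, which changed no count by over 1.5 times. Deviations of same-numbered libraries correlated between -0.322 and 0.592 over the 15 pairs of groups, above 0.1 in 4. With 2 libraries a group, these values do not settle whether the numbers pair the libraries.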
